A study of Mus musculus with 16 samples.

Results

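The S100 calcium-binding proteins were followed in mouse peritoneal macrophages as 5 genes, S100a1, S100a4, S100a6, S100a10 and S100a11, chosen by gene symbol from a table of read counts with 15871 rows. These 5 genes were selected with earlier results of the same counts known, so their levels and fold changes are given as a description and without p-values. Where a call of theirs is named below, it belongs to that description and is not a test. All 5 were among the 13527 rows that passed the filter on low counts. S100 proteins are small proteins with EF-hand motifs, which change shape when they bind calcium and then attach to partner proteins such as annexins and myosins. Inside the cell they act on the cytoskeleton, on membranes and on calcium stores, and several are also secreted and studied as mediators of inflammation. In macrophages they are known from migration and from the trafficking of vesicles and membrane.

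The cells came from 8-week-old wild-type C57BL/6 mice injected in the peritoneal cavity with 6% starch, were cultured, and were treated for 48 h. The H_O group received 33 mmol/L glucose together with oxidised low-density lipoprotein (ox-LDL), a modified lipoprotein that turns macrophages into foam cells. H_C received 33 mmol/L glucose alone. L_O received ox-LDL alone. L_C, the control, received 27.5 mM mannitol, a sugar alcohol that balances the osmotic load of the glucose. The labels give 50 mg/ml of ox-LDL, where the unit may be a slip. They do not name mannitol for L_O. Ox-LDL and the lack of mannitol therefore cannot be told apart in the comparison of L_O with L_C, nor glucose and its osmotic load in that of H_O with L_O. Each group had 4 libraries. The labels do not say that these came from separate animals or cultures, so every p-value measures only the spread between libraries, which may be technical.

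Counts per library summed to 32596640 at the lowest and 41712885 at the highest. Levels are CPM, the share of a library's counts on a fixed total, scaled by TMM factors, and differences are log2 fold changes from a single edgeR quasi-likelihood fit of the 16 libraries, with a call at an adjusted p under 0.05. The 9 macrophage markers summed to 19800 to 21500 CPM in H_O, 18700 to 19200 CPM in H_C, 18700 to 19500 CPM in L_O and 17800 to 20700 CPM in L_C, and all 9 passed the filter. Lyz2 (lysozyme) carried most of each sum, with means of 15900 CPM in H_O, 14700 CPM in H_C, 14500 CPM in L_O and 14100 CPM in L_C. Csf1r, the receptor for macrophage colony-stimulating factor, averaged 636 CPM in H_O, 877 CPM in H_C, 580 CPM in L_O and 815 CPM in L_C. Of the 9 macrophage markers, 5 were called higher and 1 lower in H_O against H_C, beside 10.4% and 11.5% of all tested rows. In L_O against L_C 2 were higher and 2 lower (12% and 13.8%). In H_C against L_C 1 was higher and 5 lower (5.03% and 7.75%), and in H_O against L_O 2 were higher (2.71%). Replicate 4 of L_C stood apart from the other libraries. Its mitochondrial transcripts made up 3.71% of counts, against 1.48% to 2.3% in the other 15 libraries, and its ribosomal protein transcripts 1.43%, against 1.67% to 1.98%. The S100 genes themselves took 0.0694% of its counts, against 0.045% to 0.0592% elsewhere. Fold changes of the 5 genes against L_C, and of other genes where a call rests on it, are therefore given with and without this library.

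All 5 genes lie on chromosome 3 (GRCm38.p6), in 2 clusters 2906081 bases apart. The first cluster holds S100a1 at chr3:90511034-90514330 on the minus strand, S100a4 at chr3:90603770-90606045 and S100a6 at chr3:90612894-90614414, both on the plus strand. Only 6848 bases separate the end of S100a4 from the start of S100a6. The second cluster holds S100a11 at chr3:93520496-93526288 and S100a10 at chr3:93555117-93564645, both on the plus strand and 28828 bases apart. The promoters of S100a4 and S100a6, the pair whose levels moved most closely together, and of S100a11, whose level lay on the other side, are printed here from RefSeq (GRCm38.p6) as 250 bases before and 50 bases after the annotated start. Capitals mark motifs found by a search of both strands.
S100a4, chr3:90603520-90603819, plus strand: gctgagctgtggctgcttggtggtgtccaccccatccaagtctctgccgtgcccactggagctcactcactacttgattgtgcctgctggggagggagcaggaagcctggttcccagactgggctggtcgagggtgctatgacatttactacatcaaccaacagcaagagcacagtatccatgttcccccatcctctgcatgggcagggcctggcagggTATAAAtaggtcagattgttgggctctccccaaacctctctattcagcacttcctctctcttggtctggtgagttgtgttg
S100a6, chr3:90612644-90612943, plus strand: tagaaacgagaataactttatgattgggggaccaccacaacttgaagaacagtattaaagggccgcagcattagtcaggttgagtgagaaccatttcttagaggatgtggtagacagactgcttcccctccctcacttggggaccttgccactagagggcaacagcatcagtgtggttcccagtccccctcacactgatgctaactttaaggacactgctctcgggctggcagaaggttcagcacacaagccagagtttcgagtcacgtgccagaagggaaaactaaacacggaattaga
S100a11, chr3:93520246-93520545, plus strand: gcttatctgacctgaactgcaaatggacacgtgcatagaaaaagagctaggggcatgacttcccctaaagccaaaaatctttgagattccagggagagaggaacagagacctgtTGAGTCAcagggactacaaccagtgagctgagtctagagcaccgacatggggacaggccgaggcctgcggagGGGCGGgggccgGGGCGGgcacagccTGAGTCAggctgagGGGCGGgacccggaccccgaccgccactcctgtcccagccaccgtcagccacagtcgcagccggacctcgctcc

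RefSeq windows were matched for 4 of the 5 genes. The motifs searched were the TATA box (TATAAA), the AP-1 element (TGANTCA), the core of the antioxidant response element (TGACNNNGC) and the Sp1 box (GGGCGG). The S100a4 window held a TATAAA beginning 31 bases before the start, a motif present in 13.6% of 32851 promoters. The S100a11 window held TGAGTCA at 136 and 38 bases before the start, and 7.81% of promoters held the AP-1 letters. It also held GGGCGG at 64, 52 and 24 bases before the start, which 35.7% of promoters contain. The TGACNNNGC letters, present in 12.4% of promoters, were in none of the 4 windows, and the windows of S100a6 and S100a1 held none of the 4 motifs. The neighbouring S100a4 and S100a6 therefore shared none of these motifs.

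Per kilobase of the longest annotated transcript, S100a11 stood highest of the 5 in every group. Its level was 249 ± 18.4 CPM per kilobase in H_O, 281 ± 12.6 in H_C, 271 ± 3.75 in L_O and 464 ± 285 in L_C (SD, n = 4 each), and the median in L_C was 323. S100a4 stood lowest of the 5 in every group on this scale, at 148 ± 17 CPM per kilobase in H_O, 72.1 ± 9.84 in H_C, 58.6 ± 7.01 in L_O and 27.1 ± 12.2 in L_C. In H_O its gap to the next gene, S100a10 at 155 ± 4.91, was within their spread, and the order went on with S100a1 at 165 ± 4.73 and S100a6 at 167 ± 6.11 CPM per kilobase. In H_C the order above S100a4 was S100a10 at 121 ± 5.44, S100a6 at 124 ± 13.5 and S100a1 at 192 ± 14.1, where S100a10 and S100a6 did not differ beyond their spread. In L_O it was S100a6 at 120 ± 8.03, S100a10 at 144 ± 4.13 and S100a1 at 162 ± 15.8, and in L_C S100a6 at 84.6 ± 17, S100a10 at 123 ± 3.25 and S100a1 at 207 ± 13.6. With the union of exons as the length, S100a4 in H_O, at 126 CPM per kilobase, lay above S100a6 at 95.6 and S100a10 at 87.5, so that part of the order depends on the transcript that is assumed.

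S100a4, also called metastasin or Fsp1, binds the heavy chain of non-muscle myosin and is known from cell motility. It had 80.4, 65.2, 67.2 and 81.2 CPM in the H_O libraries and 42.0, 30.8, 33.4 and 37.5 CPM in the H_C libraries. It had 24.2, 31.7, 31.5 and 29.4 CPM in the L_O libraries and 14.4, 16.6, 18.3 and 4.68 CPM in the L_C libraries. Every H_O library was above every library of the other 3 groups, and every L_C library was below them all. The lowest library was L_C replicate 4, at 4.68 CPM, 3.51-fold below the mean of the other L_C libraries.

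S100a4 was past the threshold, on the higher side, in all 4 comparisons. Of all tested rows, 10.4% were called higher in H_O against H_C, 12% in L_O against L_C, 2.71% in H_O against L_O and 5.03% in H_C against L_C. Ox-LDL went with a log2 fold change of 1.03 ± 0.241 (SE) in high glucose, a 2.05-fold higher level in H_O than in H_C. In low glucose the log2 fold change of L_O over L_C was 1.12 ± 0.252, and without L_C replicate 4 it was 0.83 ± 0.119. High glucose went with 1.33 ± 0.243 in the presence of ox-LDL (H_O over L_O), and with 1.42 ± 0.252 in its absence (H_C over L_C), or 1.12 ± 0.12 without L_C replicate 4. The difference between the ox-LDL effects in high and low glucose (the interaction) was -0.08 ± 0.345 on the log2 scale, and 0.21 ± 0.156 without that library. Its sign thus turned with a single library, and its call was not reached in either fit. The interaction contains L_O over L_C, so for every gene it also cannot be told apart from the lack of mannitol in L_O. Since the RNA came from whole cultures, more cells with S100a4 RNA and more of that RNA per cell cannot be told apart.

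S100a6, calcyclin, is known for binding Cacybp, a partner of ubiquitin ligases. It had 133, 129, 125 and 136 CPM in H_O, and 112, 95.2, 87.0 and 94.4 CPM in H_C. In L_O it had 84.6, 97.2, 97.5 and 96.8 CPM, and in L_C 66.6, 72.7, 78.1 and 47.5 CPM. The H_O libraries were again the highest and the L_C libraries the lowest, with no overlap with the other groups, while H_C and L_O overlapped. The log2 fold changes had the same signs as those of S100a4 and were smaller. With ox-LDL they were 0.43 ± 0.11 in high glucose (H_O over H_C) and 0.51 ± 0.111 in low glucose (L_O over L_C), or 0.38 ± 0.073 without L_C replicate 4. With high glucose they were 0.48 ± 0.11 in the presence of ox-LDL (H_O over L_O) and 0.55 ± 0.111 in its absence (H_C over L_C), or 0.42 ± 0.073 without that library. All 4 were past the threshold, though the call of H_O over L_O was lost when L_O replicate 1, the lowest of its group, was left out (0.43). The interaction was -0.08 ± 0.156 and, without L_C replicate 4, 0.05 ± 0.0981.

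**Figure D1:**
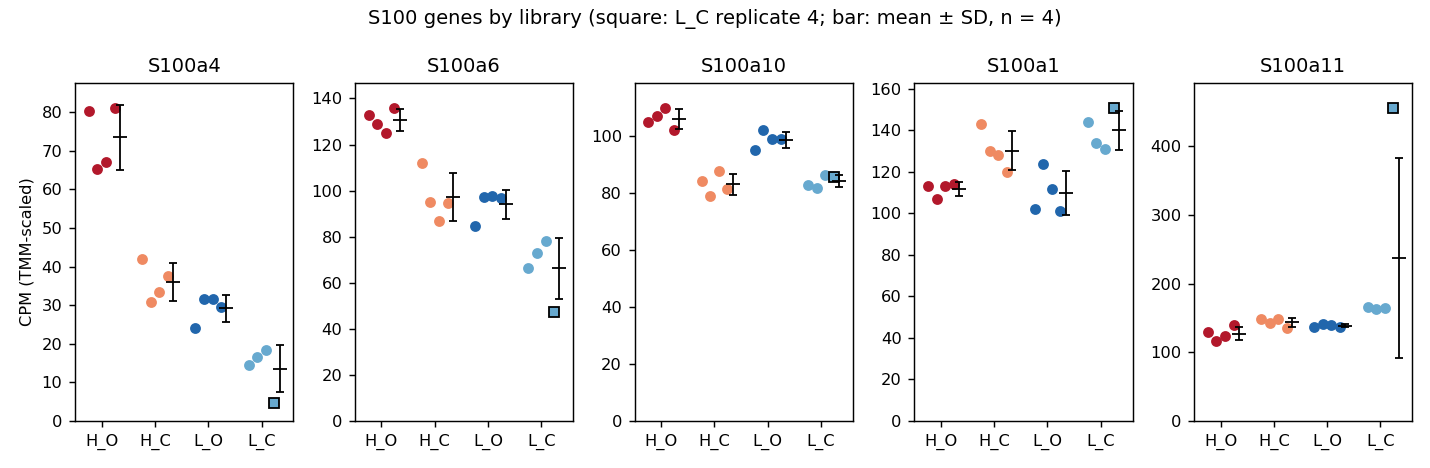
Level of each S100 gene in TMM-scaled CPM (vertical axes from 0, one panel per gene) in the libraries of H_O, H_C, L_O and L_C, with the mean and SD of 4 libraries as a bar beside the points and L_C replicate 4 as a square. S100a4 and S100a6 are highest in H_O and lowest in L_C, and the square at 456 CPM sets the mean and SD of S100a11 in L_C.

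S100a10, or p11, is the S100 protein that pairs with annexin A2 at the plasma membrane, where the complex binds plasminogen, and its EF-hands do not need calcium for this. It had 105, 107, 110 and 102 CPM in H_O and 84.1, 79.1, 87.8 and 81.5 CPM in H_C. The L_O libraries had 95.1, 102, 99.0 and 98.9 CPM, and the L_C libraries 82.9, 81.8, 86.4 and 85.8 CPM. All libraries with ox-LDL were above all those without. The log2 fold change with ox-LDL was 0.35 ± 0.0433 in high glucose (H_O over H_C) and 0.23 ± 0.0434 in low glucose (L_O over L_C), or 0.24 ± 0.0421 without L_C replicate 4, all past the threshold. With high glucose it was 0.10 ± 0.0432 in the presence of ox-LDL (H_O over L_O) and -0.02 ± 0.0434 in its absence (H_C over L_C), neither of them past it, and the H_C over L_C value was -0.01 ± 0.0421 without L_C replicate 4. Its sign turned under other scalings, to 0.00301 with upper-quartile factors and 0.02 without scaling. L_C replicate 4 lay within its group for this gene, at 1.03 times the mean of the other 3.

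S100a1 is known from muscle, where it binds the ryanodine receptor and the calcium pump of the sarcoplasmic reticulum. It had 113, 107, 113 and 114 CPM in H_O and 143, 130, 128 and 120 CPM in H_C. In L_O it had 102, 124, 112 and 101 CPM, and in L_C 144, 134, 131 and 151 CPM. The groups with ox-LDL lay below their controls with no overlap. The log2 fold change was -0.22 ± 0.0663 in high glucose (H_O over H_C) and -0.35 ± 0.0664 in low glucose (L_O over L_C), or -0.31 ± 0.0635 without L_C replicate 4, all past the threshold. The call in high glucose was lost without scaling (-0.16), without H_C replicate 1 (-0.17) and without H_O replicate 2 (-0.20). With high glucose the values were 0.03 ± 0.0664 in the presence of ox-LDL (H_O over L_O) and -0.10 ± 0.0662 in its absence (H_C over L_C), or -0.06 ± 0.0635 without L_C replicate 4, and none was past the threshold. The annotations of S100a1 and S100a13 overlap by 98 bases on chromosome 3. The strand setting of the counting is not given in the sources used here, so reads in that stretch cannot be told apart.

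S100a11, calgizzarin, binds annexin A1 and is known from membrane repair and growth control. It had 129, 117, 123 and 139 CPM in H_O and 149, 142, 148 and 135 CPM in H_C. The L_O libraries had 137, 141, 139 and 137 CPM, and those of L_C had 166, 163, 164 and 456 CPM. The first 3 L_C libraries agreed to within a few CPM and lay above all libraries of the other groups, and replicate 4 was 2.78 times their mean. H_O and H_C overlapped. With all libraries the log2 fold change of L_O over L_C was -0.78 ± 0.238 and past the threshold, and without L_C replicate 4 it was -0.24 ± 0.0467, also past it. The call with all libraries was lost in limma-voom (-0.62), in a fit of the 8 libraries compared (-0.78) and without L_O replicate 4 (-0.77). H_C over L_C was -0.72 ± 0.238 with all libraries, not past the threshold, and -0.19 ± 0.0467 without L_C replicate 4, past it, and it was also past it without any other single L_C library (-0.87 to -0.86). H_O over H_C was -0.18 ± 0.238 with all libraries, and -0.18 ± 0.0435 and past the threshold without that library. H_O over L_O was -0.13 in both fits and past the threshold in neither.

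**Figure D2:**
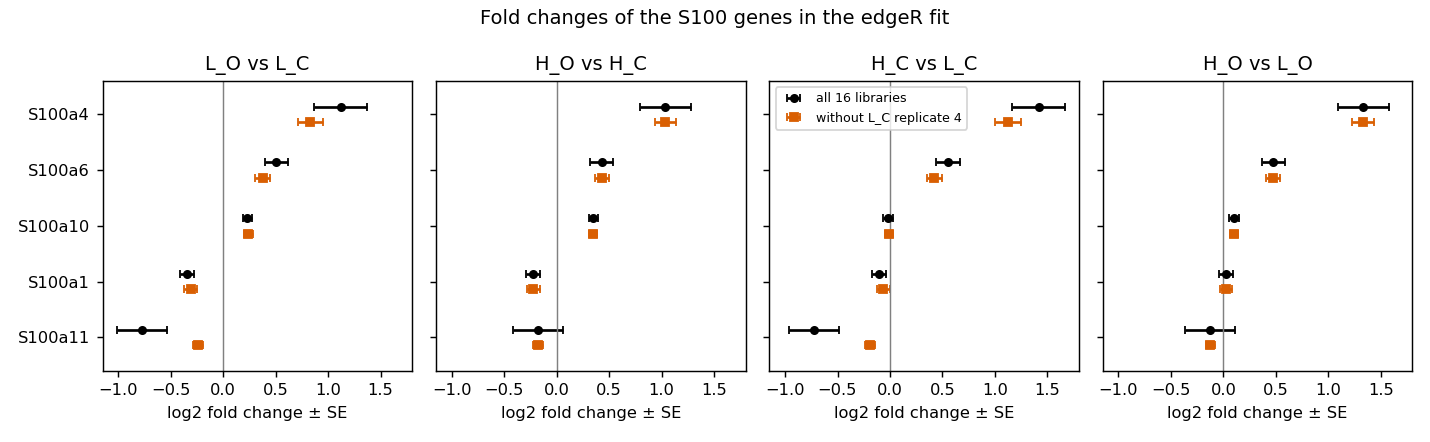
Log2 fold change with its standard error (horizontal axis) of each S100 gene in the 4 pairwise comparisons, from all 16 libraries (black circles) and without L_C replicate 4 (orange squares). S100a4 and S100a6 lie to the right of 0 in all 4 comparisons, S100a1 and S100a11 lie to the left of 0 in both ox-LDL comparisons, and S100a11 is -0.78 with and -0.24 without L_C replicate 4 in L_O over L_C.

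Counted over the 5 genes, 3 were called higher and 1 lower in H_O against H_C, where 10.4% and 11.5% of all tested rows were called higher and lower. In L_O against L_C 3 were called higher and 2 lower, beside 12% and 13.8% of all rows. In H_O against L_O 2 were called higher and the others were not called (2.71% of all rows were higher and 3.39% lower), and the same held in H_C against L_C (5.03% and 7.75%). In the interaction, where 0.0148% of rows were called, none of the 5 was called by edgeR, DESeq2 or limma-voom, and none had an unadjusted edgeR p under 0.05. Without L_C replicate 4 the counts were 3 higher and 2 lower in H_O against H_C (14.3% and 14.6% of rows), 3 and 2 in L_O against L_C (13.8% and 14.5%), and 2 and 1 in H_C against L_C (6.71% and 9.21%). Rows called in H_O against L_O numbered 826 with all libraries and 1763 without L_C replicate 4, with the same 2 S100 genes among them. The median log2 fold change of the 5 genes was 0.35 in H_O over H_C, 0.23 in L_O over L_C, 0.10 in H_O over L_O and -0.02 in H_C over L_C, while that of all rows lay between -0.00453 and 0.00896. As the genes were chosen with results known, nothing is read from these counts. The comparisons share control libraries, so a gene's values in them are not independent.

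S100a4 and S100a6 had the most alike levels among the 5 genes, with a Pearson r of 0.987 between their log2 CPM over the 16 libraries and 0.98 over the 15 without L_C replicate 4. The libraries share their treatment groups, so these correlations describe the grouping as well as the genes. The search for like genes covered tested genes whose average log2 CPM reached 3 and left out rows without an informative symbol, such as unnamed and predicted genes. Among those searched, S100a6 was the gene nearest to S100a4, followed by Dpp7 (r = 0.973), a lysosomal dipeptidase, and Arhgap45 (0.962). The genes nearest to S100a6 were S100a4, Dpp7 (0.966) and Pgs1 (0.962), an enzyme of cardiolipin synthesis. S100a10 was most like Mmd (0.973), Mylip (0.964), the ubiquitin ligase that degrades the low-density lipoprotein receptor, and Bcl2l1 (0.962), which encodes the survival protein Bcl-xL. S100a1 was most like Tnip1 (0.924), an inhibitor of inflammatory signalling, Colgalt1 (0.915) and Rin3 (0.915). The likeness of S100a11 to Smg9, Pirb and Wbp2 was 0.969, 0.969 and 0.968 over 16 libraries but 0.797, 0.859 and 0.722 over the 15 without L_C replicate 4. S100a10 was less tied to the S100a4 and S100a6 pair, with r = 0.601 and 0.639 over the 16 libraries.

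**Figure D3:**
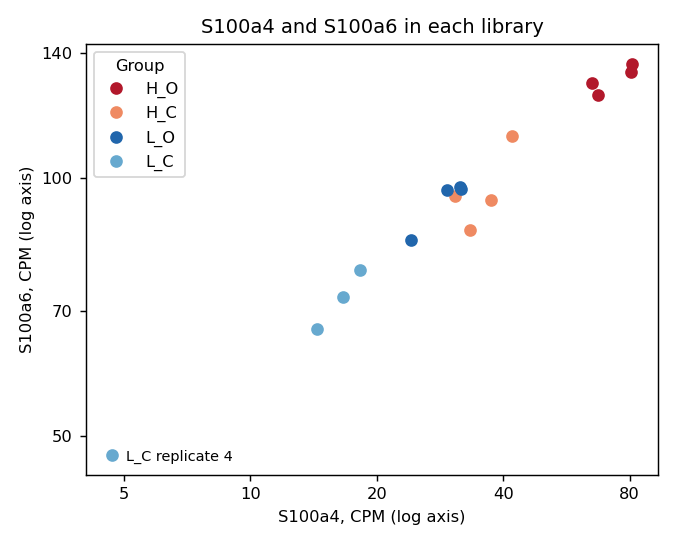
S100a4 (horizontal) against S100a6 (vertical) in CPM, both on log axes, with a point for each of the 16 libraries coloured by group. The H_O libraries lie at the upper right, the L_C libraries at the lower left with replicate 4 lowest at 4.68 and 47.5 CPM, and the H_C and L_O libraries between them.

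Part of the sequence of 2 of the genes is shared with other annotated genes. Of the 534 stretches of 50 bases in S100a4 transcripts, 253 (47.4%) also occur in Gm42674. Its transcript is annotated as a target of nonsense-mediated decay, and the gene has no row in the table. Of the 462 stretches in S100a11, 190 (41.1%) occur in processed pseudogenes, with 41.1% in Gm12854, 23.4% in Gm7665 and 4.33% in Gm29240, none of which has a row. S100a1, S100a6 and S100a10 shared no such stretch with another gene read in the same direction. Opposite strands were not compared, so an overlap of that kind, as may be that of S100a1 with S100a13, would not show. How reads that fit several genes were counted is not given in the sources used here, so the counts of S100a4 and S100a11 are uncertain to that extent. Whether shared sequence had a part in the 456 CPM of S100a11 in L_C replicate 4 was not tested.

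The rest of the family was sparse in these cells. Of 14 other symbols listed, 6 had a row and 4 were tested, counting S100pbp, which is described separately because it binds S100 proteins and is not one of them. S100a8, a subunit of calprotectin that is abundant in neutrophils, averaged 4.33 ± 0.413 CPM in H_O, 3.28 ± 0.572 CPM in H_C, 4.11 ± 0.868 CPM in L_O and 3.67 ± 0.27 CPM in L_C (SD, n = 4 each). Its adjusted p in edgeR was 0.105 in H_O against H_C, 0.523 in L_O against L_C, 0.876 in H_O against L_O and 0.597 in H_C against L_C. S100a9, its partner subunit, had at most 8 counts in any library and was not tested, nor was S100g, a vitamin D-dependent calcium-binding protein, with at most 14. S100a13, known from the release of growth factors without a signal peptide, averaged 13.8 ± 1.67 CPM in H_O, 15.5 ± 1.85 CPM in H_C, 13.2 ± 0.633 CPM in L_O and 13 ± 3.09 CPM in L_C, and its lowest adjusted p in the 4 comparisons was 0.27. Its L_C replicate 4, at 8.65 CPM, was 1.67-fold below the mean of the other 3. S100a16 stayed below 1 CPM in every library, with adjusted p-values of 0.378 and above.

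S100pbp, which encodes an S100-binding protein and is not a family member, was lower with ox-LDL. It averaged 34.7 ± 1.19 CPM in H_O and 41.4 ± 1.48 CPM in H_C (log2 fold change -0.26 ± 0.0743, adjusted p = 0.0185, edgeR). In low glucose it averaged 34.4 ± 2.92 CPM in L_O and 40.2 ± 4.39 CPM in L_C (-0.22 ± 0.0744, adjusted p = 0.0345, edgeR). Both calls were lost without scaling (-0.19 in high and -0.14 in low glucose). The call in high glucose was also lost when 1 of H_C replicates 1 and 2 or of H_O replicates 1 and 3 was left out (-0.24 each). The call in low glucose was lost without L_C replicate 2 (-0.20) or 4 (-0.16) and without L_O replicate 1 (-0.20), 2 (-0.21) or 4 (-0.20). It was also lost in a fit of the 8 libraries compared (-0.23) and with the replicate number as a block (-0.22).

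Annexins, the membrane-binding partners of the S100 proteins, moved in both directions with ox-LDL. Of 9 tested, 2 rose and 5 fell in H_O against H_C, where 10.4% of all rows were called higher and 11.5% lower. Again 2 rose and 5 fell in L_O against L_C, where 12% and 13.8% of all rows were called. Leaving out L_C replicate 4 gave counts of 3 and 5 in H_O against H_C and 2 and 5 in L_O against L_C. All rows were then called higher and lower at 14.3% and 14.6% in H_O against H_C, and at 13.8% and 14.5% in L_O against L_C. The median log2 fold changes of the 9 were -0.20 and -0.14. Anxa2, the partner of S100a10, averaged 467 ± 18.8 CPM in H_O and 359 ± 11.3 CPM in H_C (0.38 ± 0.0697, adjusted p = 0.000523, edgeR). It averaged 513 ± 11.8 CPM in L_O and 395 ± 52.6 CPM in L_C (0.38 ± 0.0696, adjusted p = 0.000486, edgeR), or 0.29 ± 0.0374 without L_C replicate 4 (adjusted p = 6.29e-06, edgeR). In both settings it was higher with ox-LDL, as S100a10 was. With high glucose its log2 fold change was -0.13 in H_O over L_O (adjusted p = 0.302, edgeR) and -0.14 in H_C over L_C (adjusted p = 0.216, edgeR). Both passed the threshold without L_C replicate 4, at -0.13 (adjusted p = 0.0131) and -0.23 (adjusted p = 0.00028).

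Anxa1, the partner of S100a11 and a mediator of the resolution of inflammation, fell to 457 ± 42.6 CPM in H_O, against 751 ± 20.8 CPM in H_C (-0.71 ± 0.0739, adjusted p = 8.15e-07, edgeR). In low glucose it fell to 478 ± 12.6 CPM in L_O, against 762 ± 90.7 CPM in L_C (-0.67 ± 0.0739, adjusted p = 1.57e-06, edgeR), or -0.75 without L_C replicate 4. Anxa3 fell as well, by 0.69 and 0.39 on the log2 scale, and Anxa6 rose by 0.26 and 0.24. With that library left out the low-glucose values were -0.42 for Anxa3 and 0.21 for Anxa6, both still called. Anxa4, Anxa5 and Anxa9 were the other members that fell in both. In L_O against L_C their calls were lost without scaling (-0.06, -0.14 and -0.29), and Anxa9 also lost its call in H_O against H_C in that setting (-0.29). Anxa9 further lost its call without L_C replicate 1 or L_O replicate 1 or 3 and in the fit of the 8 libraries compared (-0.38) in low glucose. In high glucose it did so when 1 of H_C replicates 1 and 4 or of H_O replicates 1, 3 and 4 was left out. With high glucose 2 of 9 annexins were lower in H_O against L_O and 1 of 9 in H_C against L_C, beside 3.39% and 7.75% of all rows. Without L_C replicate 4 these counts were 4 and 3. All rows called in H_O against L_O, in either direction, then numbered 1763, against 826 with all libraries. In H_C against L_C 9.21% of all rows were then lower.

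**Figure D4:**
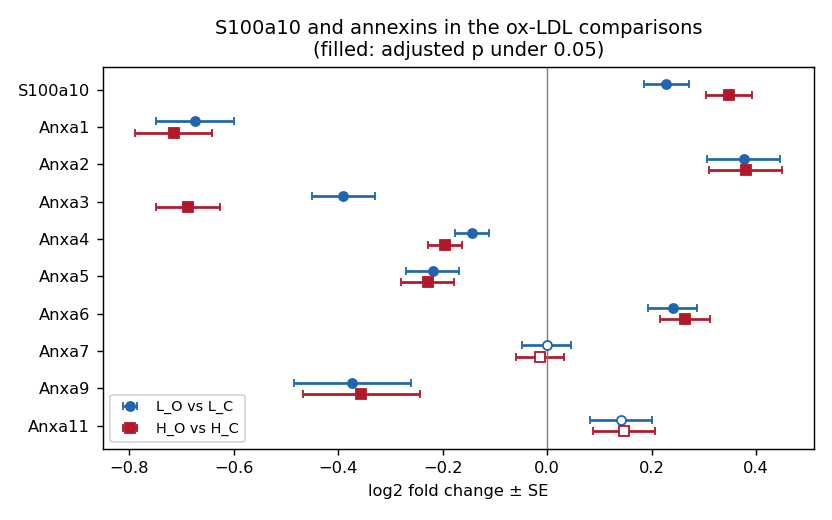
Log2 fold change with its standard error (horizontal axis) of S100a10 and of the 9 tested annexins with ox-LDL, in low glucose (L_O vs L_C, blue circles) and in high glucose (H_O vs H_C, red squares), where filled symbols passed an adjusted p of 0.05. S100a10, Anxa2 and Anxa6 lie to the right of 0 and Anxa1, Anxa3, Anxa4, Anxa5 and Anxa9 to the left in both comparisons.

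Among 19 tested intracellular targets of the 5 proteins, 5 rose and 4 fell in H_O against H_C and 6 rose and 3 fell in L_O against L_C. All rows were called higher and lower at 10.4% and 11.5% in the first comparison and at 12% and 13.8% in the second. Without L_C replicate 4, 9 rose and 4 fell in H_O against H_C and 9 rose and 3 fell in L_O against L_C. The shares of all rows called higher and lower were then 14.3% and 14.6% in H_O against H_C. In L_O against L_C they were 13.8% and 14.5%. Myh9, the non-muscle myosin heavy chain bound by S100a4, averaged 675 ± 16.7 CPM in H_O and 550 ± 5.98 CPM in H_C (0.29 ± 0.0459, adjusted p = 9.68e-05, edgeR). It averaged 720 ± 24.9 CPM in L_O and 597 ± 44 CPM in L_C (0.27 ± 0.0459, adjusted p = 0.000203, edgeR), or 0.32 without L_C replicate 4. Its paralogue Myh10 fell by 1.36 in high glucose and by 1.70 in low glucose on the log2 scale (adjusted p = 6.27e-06 and 4.31e-07, edgeR), or -1.72 in low glucose without L_C replicate 4. Myh10 was far less abundant than Myh9, with means of 3.34 CPM in H_O, 8.56 CPM in H_C, 3.05 CPM in L_O and 9.91 CPM in L_C. Ppfibp1, a liprin bound by S100a4, rose by 0.51 in H_O against H_C (adjusted p = 0.000137, edgeR). Cacybp, the partner of S100a6, rose by 0.31 in H_O against H_C (adjusted p = 0.00422, edgeR) and fell by 0.32 in H_C against L_C (adjusted p = 0.00576, edgeR), where S100a6 itself was higher. Without L_C replicate 4 the H_C over L_C value was -0.24, still called. L_O over L_C, at 0.09 and not called with all libraries (adjusted p = 0.42, edgeR), was then 0.17 and called (adjusted p = 0.0376, edgeR). Ahnak, a giant scaffold protein that binds the S100a10 and annexin A2 complex, was 0.42 higher in H_C than in L_C (adjusted p = 0.000957, edgeR), or 0.34 higher without L_C replicate 4. It fell by 0.27 in H_O against H_C (adjusted p = 0.0129, edgeR), a call lost without scaling (-0.20).

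The plasmin system, which the S100a10 complex serves at the cell surface, had 2 of 8 tested members that fell in H_O against H_C. In L_O against L_C 3 of 8 fell. Of all rows, 11.5% and 13.8% were called lower in these comparisons. Without L_C replicate 4 the same numbers fell, beside 14.6% and 14.5% of all rows. In H_O against H_C 1 member was then higher (14.3% of all rows). Plaur, the urokinase receptor, was lower in all 4 comparisons, with log2 fold changes of -0.25 in H_O over H_C, -0.27 in L_O over L_C, -0.38 in H_O over L_O and -0.40 in H_C over L_C (adjusted p-values of 0.000823, 0.000363, 0.000119 and 3.54e-05, edgeR). The values against L_C were the same to 2 decimals without L_C replicate 4. Plau, which encodes urokinase, fell with high glucose, by 0.74 in H_O against L_O and by 1.13 in H_C against L_C (adjusted p = 0.000603 and 5.7e-06, edgeR), or -1.26 in H_C over L_C without L_C replicate 4. With ox-LDL it was at 0.19 in H_O over H_C and -0.20 in L_O over L_C, neither called, nor was its interaction. Without L_C replicate 4, L_O over L_C was -0.33 and called (adjusted p = 0.00279, edgeR). The interaction of Plau was then 0.52 and called (adjusted p = 0.045, edgeR). Of the receptors linked to secreted S100 proteins, Ager, the receptor for advanced glycation end products, had at most 21 counts in any library and was not tested. Tlr4, a receptor for calprotectin, fell by 0.23 in L_O against L_C (adjusted p = 0.00287, edgeR; -0.14 and not called without scaling, -0.26 without L_C replicate 4). It was 0.30 higher in H_O than in L_O (adjusted p = 0.00138, edgeR). Cd36, a scavenger receptor that takes up ox-LDL and has been linked to calprotectin, rose by 1.47 in H_O against H_C and by 1.38 in L_O against L_C (adjusted p = 3.53e-12 and 9.71e-12, edgeR), or by 1.34 in the second without L_C replicate 4.

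Other calcium-binding proteins and effectors on the list of 20 had 5 higher and 1 lower in H_O against H_C (10.4% and 11.5% of all rows), and 4 higher and 1 lower in L_O against L_C (12% and 13.8%). With high glucose 6 were lower in H_O against L_O (3.39% of all rows) and 8 in H_C against L_C (7.75%). Without L_C replicate 4 there were 8 higher and 1 lower in H_O against H_C (14.3% and 14.6% of all rows). There were then 5 higher and 1 lower in L_O against L_C (13.8% and 14.5%), and 8 lower in H_C against L_C (9.21%). In H_O against L_O 9 were then lower, where all rows called in either direction rose from 826 to 1763.

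On chromosome 3, of 9 tested genes within 100000 bases of an S100 gene of the set, 1 was higher and 1 lower in L_O against L_C (12% and 13.8% of all rows) and 1 lower in H_C against L_C (7.75%). In L_O against L_C Ilf2, near S100a1, was 0.26 higher (adjusted p = 0.0107, edgeR), a call lost in a fit of the 8 libraries compared (0.26) and kept without L_C replicate 4 (0.23). Tchh, near S100a11, was lower, with log2 fold changes of -1.06 in L_O over L_C and -1.10 in H_C over L_C (adjusted p = 0.00464 and 0.00795, edgeR). Both comparisons share the L_C libraries, and without L_C replicate 4 the values were -0.91 and -0.96, both called.

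S100 genes are also expressed by other cells of the peritoneal cavity, and summed levels of genes listed as their markers differed between the groups. As the RNA came from whole cultures, the sums do not show which cells carried these transcripts. The 11 neutrophil markers, of which 7 had a row and the defining Ly6g, Camp, Ngp and Mpo had none, summed to 67.8 to 77.5 CPM in H_O, 111 to 120 CPM in H_C, 74.3 to 86.3 CPM in L_O and 134 to 193 CPM in L_C. Csf3r carried most of each sum, with means of 65.9 CPM in H_O, 109 CPM in H_C, 74.4 CPM in L_O and 141 CPM in L_C. S100a8, on the same list, had higher means with ox-LDL, uncalled, at 4.33 CPM in H_O against 3.28 CPM in H_C and 4.11 CPM in L_O against 3.67 CPM in L_C. The 13 fibroblast and mesothelial markers, cells in which S100a4 and S100a6 are also known, summed to 40.7 to 112 CPM in H_O, 43.0 to 222 CPM in H_C, 26.9 to 41.8 CPM in L_O and 64.9 to 89.5 CPM in L_C. The median log2 fold change of the 12 tested members of that list was -0.29 in H_O over H_C, -1.01 in L_O over L_C, 0.85 in H_O over L_O and 0.23 in H_C over L_C. Of these 12, Dcn was called, lower in L_O against L_C (adjusted p = 0.0496, edgeR), and the call was lost in DESeq2, in limma-voom and without L_C replicate 4 (-0.80). In H_O over L_O, where S100a4 was at 1.33, Col1a1 was at 1.60 and Pdgfra at 1.21, not called with all libraries (adjusted p = 0.0637 and 0.056, edgeR). Both were called in DESeq2 and without L_C replicate 4 (adjusted p = 0.0337 and 0.0288, edgeR). Upk3b, Krt8, Krt18 and Krt19 of the same list had lower means in H_O than in L_O. In the other comparisons S100a4 was also higher, while Col1a1 and Pdgfra were not called. They were at -0.02 and 0.15 in H_O over H_C, -1.30 and -0.99 in L_O over L_C, and 0.315 and 0.068 in H_C over L_C. The H_C libraries were uneven for both. Col1a1 reached 58.2 CPM in a single H_C library, while its median was 11.4 CPM in H_C and 19.1 CPM in L_C. Pdgfra reached 20.7 CPM in H_C, with medians of 9.25 CPM in H_C and 10.3 CPM in L_C. By medians, both were thus lower in H_C than in L_C. The 9 markers of small peritoneal macrophages and monocytes summed to 368 to 408 CPM in H_O, 763 to 797 CPM in H_C, 482 to 526 CPM in L_O and 994 to 1070 CPM in L_C. Itgax and Clec12a together carried most of each of these sums. The 10 markers of large peritoneal macrophages summed to 148 to 155 CPM in H_O, 258 to 278 CPM in H_C, 159 to 172 CPM in L_O and 288 to 339 CPM in L_C. F10 and Itga6 together carried most of each sum, and F10 averaged 71.7 CPM in H_O, 158 CPM in H_C, 75.7 CPM in L_O and 169 CPM in L_C. Gata6, on the same list, averaged 3.63 CPM in H_O, 4.51 CPM in H_C, 2.61 CPM in L_O and 4.47 CPM in L_C. Dendritic, B cell, and T and NK cell markers summed to under 7 CPM in every library. The part of these differences in the S100 levels was not tested.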

How the data were processed

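RNA from starch-elicited peritoneal macrophages was sequenced in 16 libraries, with total RNA isolated by Trizol, per the labels' protocols. The authors deposited read counts per gene, whole numbers without normalization. HISAT2, DESeq2 and mm10 are named, per the submitters' processing notes, without versions or roles. The counting tool, annotation and strand setting are not given in the sources used here.

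Groups were taken from the labels. The test was that of edgeR 4.0.16, run in R 4.3.3 (glmQLFit and glmQLFTest, two-sided; TMM factors; filterByExpr by group; a mean per group; 12 residual degrees of freedom). P-values were adjusted by Benjamini-Hochberg over the 13527 tested rows of each contrast, with a threshold of 0.05. Log2 CPM used a prior count of 2. Library totals of 32596640 to 41712885 counts set the counting error.

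The 5 genes and the partner lists were chosen with earlier results of these data known. Genes named were the 5 members, every other S100 gene with a row, up to 4 members per partner list with the smallest adjusted p in a contrast, Anxa1, Anxa2, Ahnak, Myh9, Cacybp, Ager and Tlr4, the 3 genes most like each member, and neighbours within 100000 bases, and the text prints a subset. Anxa4, Anxa5 and Anxa9 in the ox-LDL comparisons were named to complete the count of annexins. Plau in the ox-LDL comparisons and the interaction was also named outside these rules. Dcn, Col1a1, Pdgfra, Upk3b, Krt8, Krt18, Krt19, Csf3r, Itgax, Clec12a, F10, Itga6, Gata6, Lyz2 and Csf1r were chosen from the marker lists after their values were seen. The pipeline was tested on simulated data. Alternatives were other scalings (RLE, upper-quartile, none), other filters, DESeq2 1.42.0, limma-voom (limma 3.58.1), a replicate block, fits of the 8 libraries compared, the union of exons as length, and leaving out each library. Lengths and shared stretches came from GENCODE annotation, and positions and promoters from RefSeq, both of GRCm38.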

Additional observations from a re-analysis of the deposited data

Results flagged for a closer look

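In 4 of 60 groups of 4 libraries (15 genes in 4 groups), a single library stood far enough from the others to be set apart by Dixon's criterion, which chance does in about 1 in 20 groups. S100a11 was at 456 CPM in L_C replicate 4, against 163 to 166 CPM in the other 3 libraries, and its counts there were 17731, against 5406 to 5882. S100a6 was at 84.6 CPM in L_O replicate 1, against 96.8 to 97.5 CPM. S100pbp was at 38.8 CPM in L_O replicate 3, against 32.6 to 33.6 CPM. Ahnak was at 1980 CPM in H_O replicate 2, against 2150 to 2180 CPM. L_C replicate 4 also had the lowest levels of S100a4 (4.68 CPM) and S100a6 (47.5 CPM) of all 16 libraries and the highest mitochondrial share (3.71%). Whether these values share a cause was not tested.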

How the results depend on the processing

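The 25 fold changes of the 5 genes (4 comparisons and the interaction) were recomputed under 9 alternatives and with each of 16 libraries left out. Of 620 such values 599 kept their sign and their side of the threshold, 7 lost and 6 gained a call, and 8 changed sign. S100a4 kept its calls in all 4 comparisons in every one of these runs, as did S100a10 in both ox-LDL comparisons. As the genes were chosen with results known, these kept calls describe the processing and are not tests.

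S100a1 in H_O over H_C was -0.156 and not called without scaling, and -0.26 to -0.17 with libraries left out. In H_O over L_O, where it was never called, the values with libraries left out ran from -0.00961 to 0.0886. S100a6 in H_O over L_O ran from 0.428, not called, to 0.498. S100a10 in H_C over L_C was 0.00301 with upper-quartile factors and 0.0163 without scaling, and -0.035 to 0.0035 with libraries left out. S100a11 in L_O over L_C was -0.622 in limma-voom and -0.776 in the fit of 8 libraries, both not called, and -0.92 to -0.243 with libraries left out. In H_O over H_C it was -0.179 and called in the fit of 8 libraries, and -0.223 to -0.142 with libraries left out. In H_C over L_C it ran from -0.869 to -0.193, called when any 1 of the 4 L_C libraries was left out. The interaction ran from -0.268 to 0.206 for S100a4 and from -0.166 to 0.0542 for S100a6. The causes were not tested.

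Of 1275 values of other named genes, 1212 kept sign and side, and 3 uncalled ones changed sign. With libraries left out S100a13 ran from -0.13 (without L_C replicate 4) to 0.132 in L_O over L_C and from -0.0278 to 0.104 in H_O over L_O, and S100a8 from -0.0282 to 0.196 in H_O over L_O. Genes called in H_C against L_C numbered 914 in the fit of 8 libraries, against 1729 with all. In H_O against L_O they numbered 826 with all, 1619 in the fit of 8 libraries, and 526 (without L_O replicate 1) to 1763 (without L_C replicate 4) with libraries left out. The interaction had 2 calls with all, 95 in DESeq2, 0 in limma-voom, and 0 to 53 with libraries left out, again highest without L_C replicate 4.

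Libraries with the same replicate number did not deviate together over all tested rows (correlations of -0.164 to 0.038). This cannot show whether the numbers pair samples, since a shared source with a small effect could look the same. The replicate block left 0 interaction calls, changed no call of the 5 genes and ended those of S100pbp (-0.219) and Dcn (-1.03) in L_O over L_C. Depth limits S100a9, S100g, S100a16 and Ager, which had few counts.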
